A study of Mus musculus with 9 samples.

Results

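The genes of respiratory complex I whose symbols begin with Nduf were followed on the polysomes of maturing mouse oocytes. They were chosen by symbol alone, from probe sets that carry 1 gene symbol, and 44 of the 18193 genes measured in this way qualified. Of these 44, 34 encode structural subunits, 8 are the assembly factors Ndufaf1 to Ndufaf8, and 2 carry an Nduf name but are not counted as subunits of complex I. Those 2 are Ndufa4, a subunit of cytochrome c oxidase, and its paralog Ndufa4l2. Ndufs6, Ndufa11 and 2 copies of Ndufb4 had no probe set of their own symbol alone and were not tested as genes.

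The study collected polysome-bound mRNA, that is, mRNA loaded with ribosomes, and hybridised it to 9 Affymetrix mouse arrays, with 3 for each of 3 stages. Germinal vesicle (GV) oocytes, in prophase arrest, were taken 0 h after hCG. Metaphase I (MI) oocytes, whose sample descriptions use an abbreviation (pGVB) that the labels do not explain, were taken at 4 h and metaphase II (MII) oocytes, the arrested egg, at 14 h. All mice had received PMSG, a gonadotropin that stimulates follicle growth, 48 h before hCG, and the sources used here give neither strain nor age. The 3 samples of a stage are labelled biological replicates, but nothing says whether animals were pooled. The p-values therefore set differences between stage means against the scatter of these samples only, technical scatter included.

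Complex I takes electrons from NADH and passes them to ubiquinone while it pumps protons across the inner mitochondrial membrane. It is shaped like an L. The matrix arm holds the flavin and the iron-sulphur clusters, and the membrane arm holds the proton pumps, whose cores are encoded by mitochondrial DNA and were not analysed here. Assembly factors bind intermediates of the complex, modify or stabilise subunits, and are absent from the finished enzyme. Oocytes depend on mitochondrial oxidation of pyruvate, and the mitochondria of the egg are those the embryo inherits.

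Sequences around the start sites are given first, to show letters that several members share. RefSeq promoter windows of GRCm38.p6, each from 250 bases before to 50 after an annotated start site, were found for 39 of the 44 genes (41 windows). The letters ATGGCGGC, the core of the TISU element known to start translation on mRNAs with very short leaders, stood on the sense strand of 7 of the 41 windows, or 17.1%. They stood in 1.37% of all 32851 windows. The 7 windows belong to 6 of the 39 genes. Overlapping windows of Ndufa7 were both counted, with the letters before the start site (at -171 and -98). In 5 genes the letters lay after the start site, at distances of 14 to 39 bases, and these stretches are shown with the 8 letters in capitals.
Ndufb5 (chr3:32737071-32737100, plus strand): ccggtgtagccATGGCGGCcatgagcctgc
Ndufs7 (chr10:80249465-80249494, plus strand): ccgaggccaagATGGCGGCgctggcgggtg
Ndufa9 (chr6:126849095-126849124, minus strand): ttgtgggagaagATGGCGGCcgccgtccgc
Ndufs4 (chr13:114388045-114388074, minus strand): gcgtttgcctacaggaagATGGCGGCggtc
Ndufaf8 (chr11:120098936-120098965, plus strand): cagggcccaagATGGCGGCgccctcgagag
A match is a description of the letters and not a mapped initiation site.

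Factors known to act at promoters of respiratory genes were searched on both strands. The letters GCATGCGC, part of the site of nuclear respiratory factor NRF1, stood in 4 of the 41 windows (9.76%) and in 2.71% of all windows. The letters CCGGAAG, read by ETS factors such as GABP, stood in 6 (14.6%) and in 8.86% of all windows. The 120 bases before the start site are shown, with these letters in capitals, for the subunit with the largest fall between MI and MII by the probe sets that stand for genes (Ndufb7), for an assembly factor that fell (Ndufaf4) and for the assembly factor with the highest log2 change (Ndufaf2). In Ndufaf4 a match on each strand overlaps the other, and Ndufaf2 had none of these letters in this stretch. Among the other assembly factors that fell, Ndufaf5 had the NRF1 letters in its window and Ndufaf7 had none of these letters. Whether the letters go with the changes was not tested.
Ndufb7 (chr8:83566638-83566757, plus strand): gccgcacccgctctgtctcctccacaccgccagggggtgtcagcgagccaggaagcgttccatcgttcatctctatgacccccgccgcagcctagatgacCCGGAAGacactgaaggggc
Ndufaf4 (chr4:24897963-24898082, plus strand): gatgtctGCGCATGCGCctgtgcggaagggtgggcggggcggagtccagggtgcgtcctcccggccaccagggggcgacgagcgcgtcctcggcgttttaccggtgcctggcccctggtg
Ndufaf2 (chr13:108158626-108158745, minus strand): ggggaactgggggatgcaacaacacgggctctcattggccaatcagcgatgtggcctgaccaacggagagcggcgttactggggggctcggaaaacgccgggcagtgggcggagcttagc

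Array medians lay between 12.39 and 13.22 on the intensity scale, so a probe set at such a value is near background. The oocyte markers Gdf9 and Zp3 were bright on all 9 arrays, with 6031 as the lowest value of Gdf9 and 1118 as that of Zp3. Other oocyte markers were not: Figla had 15.5, 24.5 and 20.3 on the MII arrays against 784, 1341 and 1035 on the MI arrays. Sohlh1 stayed between 41 and 137 on all arrays. Markers of granulosa, cumulus and theca cells, 16 measured, had a median intensity of 49.9 on MI 3, against 10.0 to 20.2 on the other 8 arrays. Their summed intensity was 1082 to 1351 on MI arrays, 1008 to 1096 on GV arrays and 747 to 1161 on MII arrays. Fshr, the FSH receptor of granulosa cells, stayed between 1 and 13.9 throughout, but others were higher. Cyp11a1 had 782, 680 and 130 on the GV arrays, 490, 761 and 338 on the MI arrays, and 394, 19.5 and 75.3 on the MII arrays. Nr5a2 had 204, 725 and 404 on the MII arrays, and Star had 403 on GV 3. Of these 16 markers, 1 was called in MII relative to MI, beside 9.32% of all genes called in either direction. It was Tnfaip6, a gene of expanding cumulus cells, with 3.08, 23.7 and 2.19 on the MII arrays against 75.9, 77.4 and 45.75 on the MI arrays (log2 change -1.76, adjusted p = 0.0176). The part of these cells in the values below was not tested. The median of 12 oocyte markers moved with the stage too, at 11.10 to 11.57 on MII arrays against 12.46 to 12.76 on GV and MI arrays on the log2(intensity + 16) scale, and its part in the values below was not tested. Of these 12, 6 fell in MII relative to MI, Zp3 among them, and 0 rose (limma, adjusted p under 0.05), beside 6.78% and 2.54% of all genes. Relative to GV, 7 fell and 2 rose (Oosp1 and Mos), beside 8.8% and 5.46% of all genes. A polysome signal combines the amount of an mRNA with its ribosome loading, and these arrays cannot tell the 2 apart, nor fewer cells from less RNA per cell.

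Complex I subunit mRNAs were high on polysomes at GV and MI and low at MII. Of the 34 structural subunits, 27 fell in MII relative to MI by limma's moderated test (adjusted p under 0.05 over all genes), none rose and 7 did not pass. Over all genes tested, 6.78% fell and 2.54% rose in this comparison, 9.32% in all. The median log2 change of the subunits was -3.29, which is 9.77-fold lower in MII than in MI, beside -0.02 over all genes. All 27 fell at least 4-fold and 20 fell at least 8-fold. In 32 of the 34, all 3 MII arrays lay below all 3 MI arrays, a pattern seen in 15.3% of all genes, and the log2 change was below 0 in all 34. The 34 include Ndufb4, whose probe set was at background on every array. Since bright genes fell more often, the count was also taken over the 3454 genes with a mean GV intensity of at least 500, of which 25.1% fell. There, 26 of the 32 subunits fell.

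The Ndufaf assembly factors gave a mixture of changes. Of the 8, 3 fell in MII relative to MI, beside 6.78% of all genes. None rose (0 were above 0 at an unadjusted limma p under 0.05), beside 2.54% of all genes, and 5 did not pass. Their median log2 change was -1.28 (2.43-fold lower in MII). The 8 include Ndufaf1, at background on every array, and Ndufaf6, near background on all MII arrays. The log2 changes of the 8 ran between -3.52 (Ndufaf8) and 0.45 (Ndufaf2). Those of the structural subunits ran between -5.38 (Ndufb7) and -0.12 (Ndufa10). A mean GV intensity of at least 500 was reached by 3 of the 8 (Ndufaf4, Ndufaf7 and Ndufaf8), of which 2 fell. The difference between the classes was described by these counts and medians and was not tested.

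**Figure D1:**
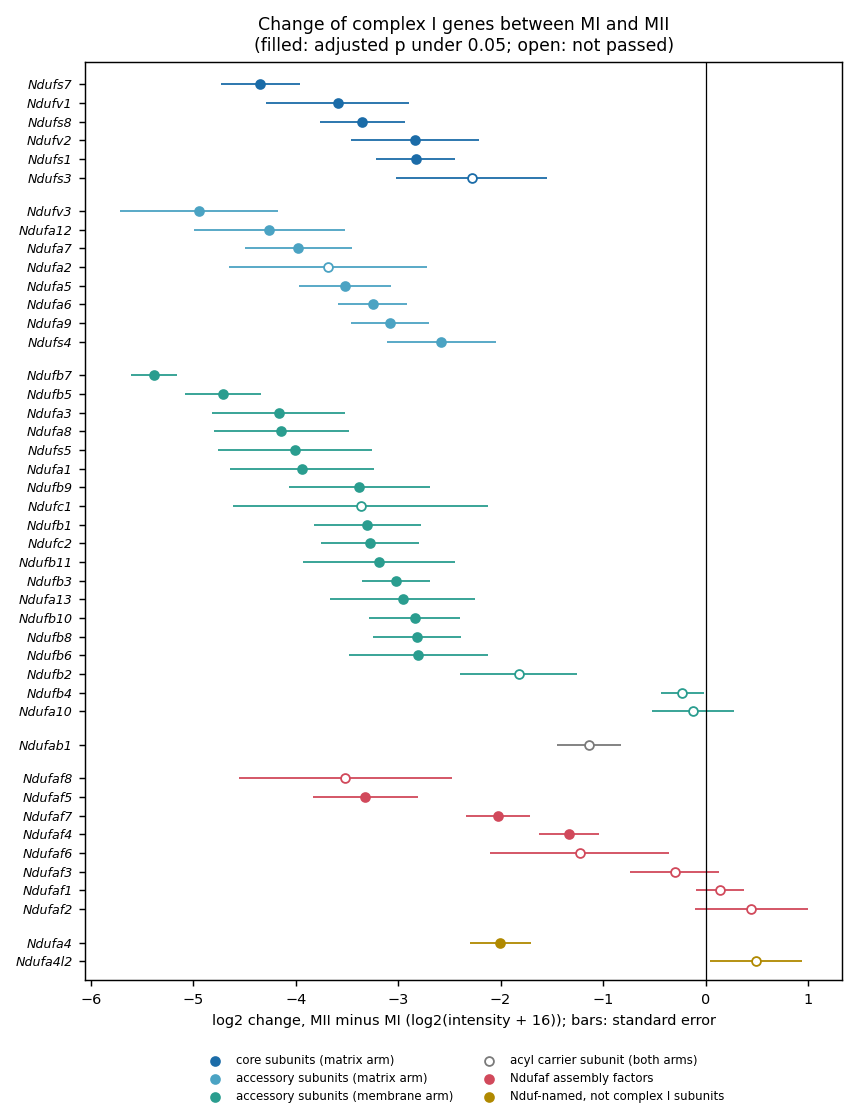
Log2 change of each of the 44 genes in MII relative to MI (horizontal axis, on log2(intensity + 16)), grouped by class, with standard errors from the fit; filled points passed and open points did not. The 34 subunits lie between -5.38 and -0.12, and the 8 assembly factors between -3.52 and 0.45. Of those that fell, the 27 subunits lie between -5.38 and -2.58 and the 3 assembly factors between -3.32 and -1.33.

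The core subunits of the matrix arm carry the electrons. Ndufv1 binds NADH and the flavin. Its intensities were 1167, 1245 and 870.4 on the GV arrays, 915, 1029 and 847 on the MI arrays, and 105, 166 and 5.70 on the MII arrays. All MII arrays lay below every GV and MI array, with MII 3 the lowest. Ndufv1 fell 12.1-fold in MII relative to MI (log2 change -3.59, SE 0.69, adjusted p = 0.018), a call that did not hold without MI 1 (adjusted p = 0.0544) or MI 2 (adjusted p = 0.0633). The other probe sets of Ndufv1 moved by -3.16 and by -2.15, the latter without passing (adjusted p = 0.123 over all probe sets). Its iron-sulphur partner Ndufv2 fell by 2.84 on the log2 scale (adjusted p = 0.029), with 133, 4.67 and 67.7 on the MII arrays against 393, 519 and 414 on the MI arrays. Its adjusted p lay between 0.0651 and 0.0936 when MI 1, MI 2, MI 3 or MII 3 was left out, and was 0.0676 with pseudocount 1. Ndufs1, which holds several iron-sulphur clusters, fell by 2.83 (adjusted p = 0.00526) and had 65.7, 26.9 and 85.6 on the MII arrays against 713, 475 and 342 on the MI arrays. Its call held in all 9 fits that left out 1 array.

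Nearer to the ubiquinone site, Ndufs7 carries the last iron-sulphur cluster of the chain. It had 1292, 1738 and 2266 on the GV arrays, 1048, 1541 and 954 on the MI arrays, and 41.3, 75.7 and 20.3 on the MII arrays. No MII array came near the other stages, and the fall was 20.3-fold relative to MI (log2 change -4.35, SE 0.39, adjusted p = 0.00135). Its other probe set moved by -3.23. Ndufs8, a further iron-sulphur subunit, had 16.9, 18.04 and 6.71 on the MII arrays against 219.6, 223 and 464 on the MI arrays. The MII values lie at the level of the array medians, so the fall of 10.2-fold (log2 change -3.35, adjusted p = 0.00356) was measured down to background. Other probe sets of Ndufs8 moved by -3.61 to -1.55. Those at -2.42 and -1.55 did not pass (adjusted p = 0.108 and 0.109 over all probe sets). Single MII arrays also lay below the array medians for Ndufv1, Ndufv2, Ndufa12 and Ndufc1. Ndufs3, a core subunit of the same region, did not pass (log2 change -2.28, SE 0.74, 95% interval -3.98 to -0.58, adjusted p = 0.107), although its MII arrays (365, 665 and 86.5) all lay below its MI arrays (2626, 1370.2 and 819).

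**Figure D2:**
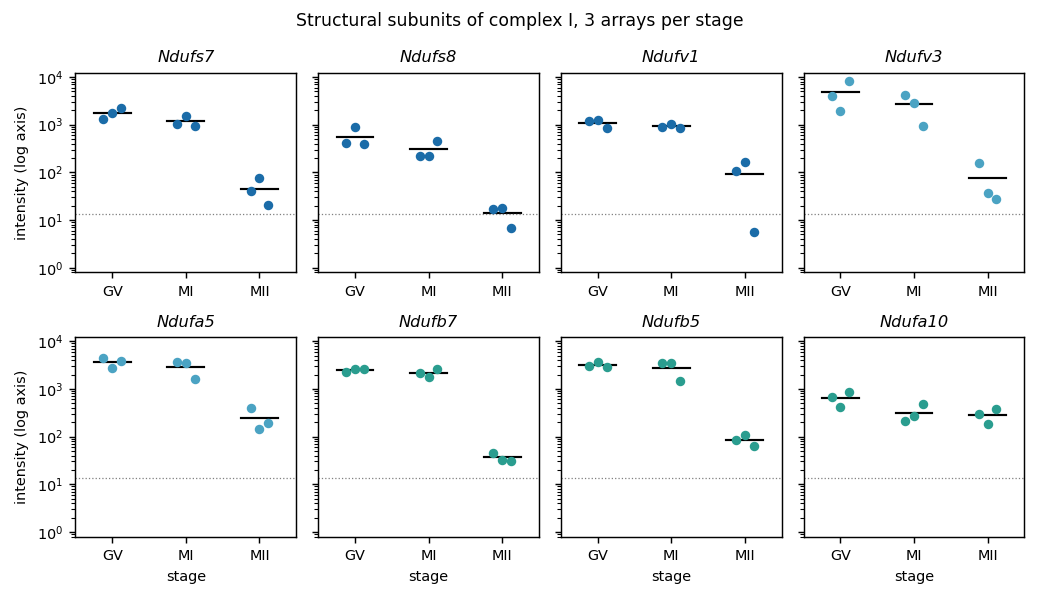
Intensity on each of the 3 arrays per stage (points, log axis) for 8 structural subunits, with the mean of each stage as a bar and the highest array median, 13.22, as a dotted line. In 7 of them every MII array lies below every GV and MI array, whereas the MII values of Ndufa10 overlap its MI values.

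Among the accessory subunits of the matrix arm, 7 of the 8 fell in MII relative to MI, with a median of -3.60. Ndufv3, which sits at the NADH-oxidising tip, varied widely at every stage, with 3992, 1974 and 8345 on the GV arrays, 4248, 2833 and 956 on the MI arrays, and 159, 37.7 and 27.2 on the MII arrays. The stages GV and MI overlapped and MII stood apart, 30.8-fold below MI (log2 change -4.94, SE 0.78, adjusted p = 0.00826). Ndufa12 had 218, 36.7 and 8.16 on the MII arrays against 1441, 1352 and 1027 on the MI arrays (log2 change -4.26, adjusted p = 0.012). Of its other 3 probe sets, -4.33 and -4.24 were alike, while a dim one moved by 1.05 without passing. Ndufa7 fell by 3.97, and its other 4 probe sets moved by -4.01 to -3.50.

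Ndufa5 shows how much the choice of probe set can matter. The probe set with the highest mean log2 value gave a fall of 3.52 on the log2 scale (adjusted p = 0.0039), with 398, 142 and 196 on the MII arrays against 3592, 3504 and 1626 on the MI arrays. Its second probe set moved by -6.59, with a mean of 48.7 in MII and 5760 in MI. Ndufa9, at the joint of the 2 arms, fell by 3.08 (adjusted p = 0.0034). Ndufs4, whose loss causes a Leigh-like disease in mice, fell by 2.58 (adjusted p = 0.0224) and missed the threshold without MI 1, MI 2 or MII 3 (adjusted p between 0.0552 and 0.0655) and with the mean of its 4 probe sets (adjusted p = 0.124), of which a dim one moved by 0.60 without passing. Ndufa2 narrowly missed the threshold (log2 change -3.68, SE 0.96, adjusted p = 0.0526), with MII 3 at 31.5 far below MII 1 and MII 2 at 472 and 646.

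Of the 19 accessory subunits of the membrane arm measured, 15 fell in MII relative to MI, with a median of -3.27. Ndufb7, on the intermembrane-space side, had 2304, 2558 and 2602 on the GV arrays, 2194, 1758 and 2609 on the MI arrays, and 45.6, 32.5 and 31.4 on the MII arrays. The arrays within each stage lay close together, and the fall was 41.7-fold relative to MI (log2 change -5.38, SE 0.22, adjusted p = 0.000145). The other probe set of Ndufb7 moved less, by -3.05, with a mean of 75.1 in MII and 732 in MI, and the mean of both probe sets gave -4.22. Ndufb5 had 2969, 3702 and 2880.0 on the GV arrays, 3506, 3427 and 1452 on the MI arrays, and 85.9, 107 and 63.0 on the MII arrays. MI 3 was the lowest MI array, and the fall was 26.2-fold (log2 change -4.71, SE 0.37, adjusted p = 0.00121). A further probe set of the gene moved by -5.62.

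Other membrane-arm subunits followed with wider scatter. Ndufa3 fell by 4.17 (adjusted p = 0.00799), with 61.5, 279 and 144 on the MII arrays against 3169, 3942 and 1655 on the MI arrays. Ndufa8, another protein of the intermembrane-space side, fell by 4.14 (adjusted p = 0.00863), with 201, 167 and 49.8 on the MII arrays against 5796, 2281 and 1064 on the MI arrays. Both had MI 3 as their lowest MI array, and the call of each held in all 9 fits that left out 1 array. Ndufc2 (log2 change -3.27), Ndufb1 (-3.30), Ndufb3 (-3.02), Ndufb8 (-2.82) and Ndufb10 (-2.84) held theirs too. Ndufb9 fell by 3.38 (adjusted p = 0.0218) but did not pass when MI 1, MI 2, MII 2 or MII 3 was left out (adjusted p between 0.069 and 0.0763). The calls of Ndufa1 (1 such fit of 9), Ndufs5 (3), Ndufb6 (7), Ndufb11 (7) and Ndufa13 (8) were likewise lost when single arrays were left out.

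A few subunits stood apart from this pattern. Ndufa10, a membrane-arm subunit that resembles nucleoside kinases, had 299, 185 and 377 on the MII arrays against 216, 267 and 473 on the MI arrays. These overlapped, and the log2 change was -0.12 (95% interval -1.05 to 0.81, adjusted p = 0.92). A second probe set of Ndufa10 had 3.72, 12.8 and 3.58 on the MII arrays, near or below the array medians, against 16.6, 46.9 and 16.9 on the MI arrays and 140, 142 and 64.4 on the GV arrays. It did not overlap between MII and MI (log2 change -0.87, adjusted p = 0.295 over all probe sets) and passed in MII relative to GV (-2.49, adjusted p = 0.00634). Ndufab1, the acyl carrier protein that sits in both arms and also serves mitochondrial fatty acid synthesis, had 1053, 957 and 791 on the MII arrays against 1563, 1965 and 2818 on the MI arrays. Its MII arrays were all lower, but by 2.19-fold and short of the threshold (log2 change -1.13, 95% interval -1.85 to -0.41, adjusted p = 0.0631). Another Ndufab1 probe set, with 702, 688 and 599.6 on the MII arrays against 1460.2, 1738 and 1968 on the MI arrays, passed over all probe sets (log2 change -1.35, adjusted p = 0.0184). Ndufb2 (-1.82, adjusted p = 0.0941) and Ndufc1 (-3.37, adjusted p = 0.154) did not pass, and the MII arrays of Ndufc1 were at 1391, 298 and 9.57. The Ndufb4 probe set of that symbol alone stayed between 3.89 and 12.6 on all 9 arrays, at background, and says nothing about a change.

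**Figure D3:**
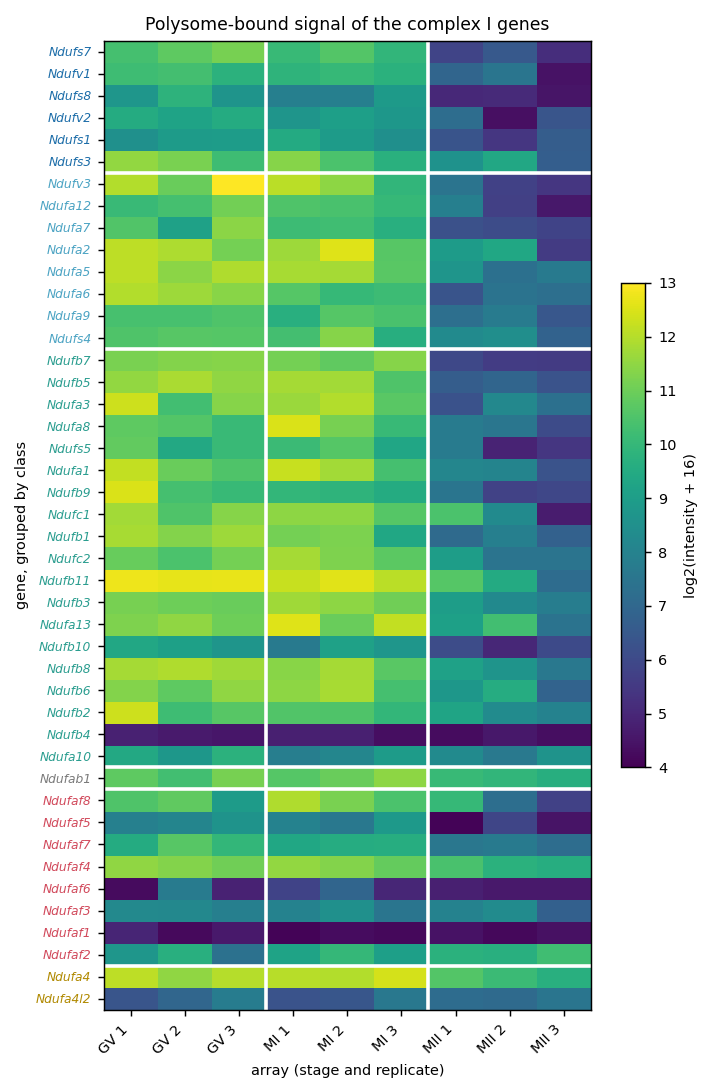
Signal of the 44 genes on each of the 9 arrays, as log2(intensity + 16), with genes in rows grouped and coloured by class and arrays in columns by stage. Most subunit rows darken in the 3 MII columns, while those of Ndufa10, Ndufaf2, Ndufaf3 and Ndufa4l2 do not darken between the MI and MII columns as most do.

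The assembly factors of the early, matrix-facing module include an enzyme and its partner. Ndufaf5, which hydroxylates an arginine of Ndufs7, had 223, 256 and 383 on the GV arrays, 241, 178 and 437 on the MI arrays, and 1.15, 42.8 and 6.36 on the MII arrays. MII 1 and MII 3 lay below the array median, and the fall was 10.0-fold relative to MI (log2 change -3.32, SE 0.51, adjusted p = 0.00772). Ndufaf8, which stabilises Ndufaf5, had 1040.2, 136 and 36.9 on the MII arrays against 3851, 2341 and 1383 on the MI arrays. All MII arrays were lower, but MII 1 stood near the MI range, and the change of -3.52 did not pass (SE 1.04, 95% interval -5.91 to -1.12, adjusted p = 0.0788). It passed without MII 1 (adjusted p = 0.0146), with an intensity trend in the prior (adjusted p = 0.0405), with the lowest 40% of genes left out (adjusted p = 0.039) and with the mean of its probe sets (adjusted p = 0.0148), of which the other moved by -2.82. Ndufaf7, a methyltransferase needed for assembly of the complex, had 175, 189.6 and 132 on the MII arrays against 646, 743 and 768 on the MI arrays and fell 4.07-fold (log2 change -2.03, SE 0.31, adjusted p = 0.00759).

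Ndufaf3 and Ndufaf4 bind each other and act on the same intermediate, and their values are given side by side. Ndufaf4 had 2872, 2585 and 2101 on the GV arrays, 2978, 2563 and 1869 on the MI arrays, and 1354, 846 and 757 on the MII arrays. It fell 2.52-fold (log2 change -1.33, SE 0.29, adjusted p = 0.0287), which did not hold when MI 1, MI 2, MII 2 or MII 3 was left out (adjusted p between 0.085 and 0.093), with pseudocount 1 (adjusted p = 0.115) or with the mean of its 2 probe sets (adjusted p = 0.346). With only the 2 stages compared in the fit, 21 subunits were called, and Ndufaf4, Ndufs4, Ndufv1 and Ndufv2 were among the genes that did not pass (adjusted p between 0.0565 and 0.0805). Ndufaf3 had 288, 281 and 219 on the GV arrays, 240.0, 352 and 164 on the MI arrays, and 239.6, 307 and 93.6 on the MII arrays. The stages overlapped, with a log2 change of -0.30 in MII relative to MI (95% interval -1.30 to 0.70, adjusted p = 0.788). The difference between the genes was not tested.

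Ndufaf2 is a paralog of Ndufa12 that holds the place of that subunit until late in assembly. It had 404, 796 and 146 on the GV arrays, 588, 997 and 529.6 on the MI arrays, and 849.8, 802 and 1179.8 on the MII arrays. Every MII array was above every GV array, a pattern seen in 2573 of all 18193 genes and in 1 of the 8 Ndufaf genes. Neither comparison passed: the log2 change was 0.45 relative to MI (95% interval -0.82 to 1.72, adjusted p = 0.743) and 1.31 relative to GV (95% interval 0.04 to 2.58, adjusted p = 0.181). Ndufa12, as given above, was 19.1-fold lower in MII than in MI. Ndufaf1, a factor of the membrane-arm intermediate, stayed between 1 and 14.7 on all arrays, at background. Ndufaf6 had 11.6, 8.58 and 8.67 on the MII arrays against 39.5, 108 and 15.3 on the MI arrays, with a change of -1.23 that did not pass (adjusted p = 0.51).

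**Figure D4:**
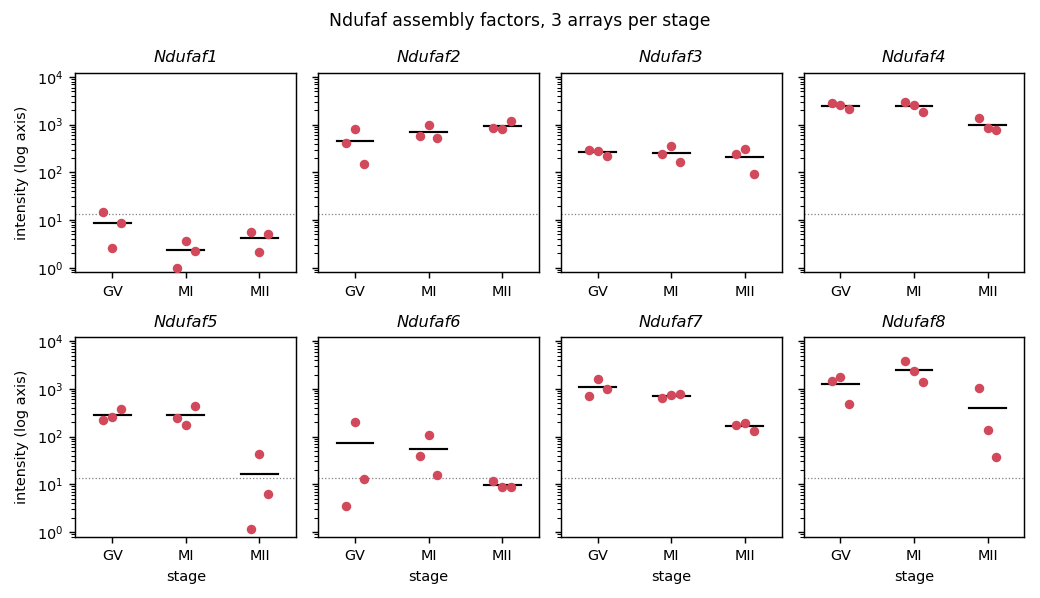
Intensity on each of the 3 arrays per stage (points, log axis) for Ndufaf1 to Ndufaf8, with the mean of each stage as a bar and the highest array median, 13.22, as a dotted line. Ndufaf4, Ndufaf5 and Ndufaf7 are lower in MII, Ndufaf2 and Ndufaf3 overlap between MII and MI, and Ndufaf1 lies near or below the dotted line throughout.

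Assembly factors of complex I without an Nduf name gave a similar mixture. Of 10 measured, 3 fell and none rose in MII relative to MI, beside 6.78% and 2.54% of all genes. The other 7 did not pass, and the median log2 change of the 10 was -0.96. Dmac1, a factor of the distal membrane arm, had 88.3, 22.0 and 56.8 on the MII arrays against 1382, 1034 and 416 on the MI arrays (log2 change -3.70, adjusted p = 0.00501). Tmem186, of the membrane-arm intermediate that Ndufaf1 belongs to, fell by 2.24 (adjusted p = 0.0112), a call lost with the mean of its probe sets (adjusted p = 0.293). Tmem70, which serves complex I and ATP synthase, fell by 1.78 (adjusted p = 0.0191) but did not pass without MI 1, MI 2 or MII 3 (adjusted p between 0.064 and 0.0693) or with pseudocount 1 (adjusted p = 0.0562). Foxred1, Ecsit, Acad9, Timmdc1, Tmem126b, Nubpl and Aifm1 did not pass.

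The whole span from GV to MII was compared next; it shares the MII arrays with the comparison above. Of the 34 structural subunits, 29 fell in MII relative to GV, where 8.8% of all genes fell, and none rose, where 5.46% of all genes did. The median was -3.52, which is 11.5-fold lower in MII than in GV, and the log2 change was below 0 in all 34, Ndufb4 at background included. In 33 of them all 3 MII arrays lay below all 3 GV arrays, as in 17.3% of all genes. The median was -2.92 without MII 3. Ndufb7 (log2 change -5.58, adjusted p = 0.000108), Ndufv3 (-5.78, adjusted p = 0.00294), Ndufb5 (-4.99, adjusted p = 0.000654) and Ndufs7 (-4.91, adjusted p = 0.000755) had the largest falls. Ndufa6, a subunit that binds the acyl carrier protein, was next (-4.66, adjusted p = 0.000654), with 65.8, 158 and 141 on the MII arrays against 4024, 3232 and 2717 on the GV arrays. Ndufs3, Ndufa2 and Ndufb2 fell in this comparison (log2 changes -2.75, -3.75 and -2.52), and Ndufa13 did not pass (-2.32, adjusted p = 0.068). The call of Ndufs3 (adjusted p = 0.0435) was lost in 6 of the 9 fits that left out 1 array, with pseudocount 1 (adjusted p = 0.0503) and with pseudocount 64 (adjusted p = 0.0512). Of the assembly factors, Ndufaf4, Ndufaf5 and Ndufaf7 fell (log2 changes -1.37, -3.39 and -2.57), and the median of the 8 was -1.17. The call of Ndufaf4 did not hold without GV 1, GV 2, MII 2 or MII 3 (adjusted p between 0.0564 and 0.0629), with pseudocount 1 (adjusted p = 0.0787) or with the mean of its probe sets (log2 change -0.64, adjusted p = 0.445).

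From GV to MI, the first 4 h after hCG, no member passed. The background was the same, with 0% of all 18193 genes called by limma. At an unadjusted p under 0.05 there were 2 members and 1308 of all genes. The median log2 change in MI relative to GV was -0.21 for the structural subunits and -0.05 for the assembly factors. The median of the subunits was -0.05 without MI 3 and -0.45 without MI 2. MI 3 gave the lowest of the 3 MI values in 25 of the 34 subunits and was the array with the highest median of granulosa, cumulus and theca markers, whose part in these values was not tested. The smallest p belonged to Ndufa6, with 1569.8, 1039 and 1126 on the MI arrays against 4024, 3232 and 2717 on the GV arrays. The groups did not overlap, and the log2 change was -1.41 (SE 0.34, 95% interval -2.19 to -0.63, adjusted p = 0.403). All 3 MI arrays lay below all 3 GV arrays in 5 of the 34 subunits and in 1092 of all 18193 genes. Ndufa10 (log2 change -1.02, 95% interval -1.94 to -0.09, adjusted p = 0.669) and Ndufs8 (-0.85, 95% interval -1.80 to 0.11, adjusted p = 0.761) followed.

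Whether the change from MI to MII differed from that between GV and MI was tested directly for each gene. Ndufb7 alone among the 44 passed (difference of log2 changes -5.18, SE 0.38, adjusted p = 0.00737), where 0.209% of all genes were called (0.198% with a negative and 0.011% with a positive difference), and Ndufb5 fell just short (-4.43, adjusted p = 0.0501). The difference was below 0 in 33 of the 34 subunits, with Ndufa10 at 0.89 as the exception. This contrast counts the MI arrays in both of its terms.

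The median intensity of the 34 subunits was 2296, 1484 and 2100.1 on the GV arrays, 1882, 1856 and 1045 on the MI arrays, and 201, 167 and 69.1 on the MII arrays. Each MII array was below each GV and MI array. MII 3 gave the lowest MII value in 23 of the 34 subunits, and without it the median change in MII relative to MI was -3.03, with 21 subunits called. Without MI 2, 18 subunits were called. The median intensity of the 8 assembly factors was 346, 538 and 301 on the GV arrays, 414, 547 and 483 on the MI arrays, and 207, 163 and 65.2 on the MII arrays, so these medians did not overlap either. For comparison, 30 of 47 subunits of complexes II to V and 32 of 43 cytosolic ribosomal protein genes fell in MII relative to MI, with medians of -2.57 and -2.92. Over all genes, 6.78% fell. Among the genes with a mean GV intensity of at least 500 the medians were -3.33 for complex I subunits, -3.06 for complexes II to V, -3.31 for ribosomal proteins and -0.65 over all such genes. For the 3 Ndufaf assembly factors at that level it was -2.03.

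**Figure D5:**
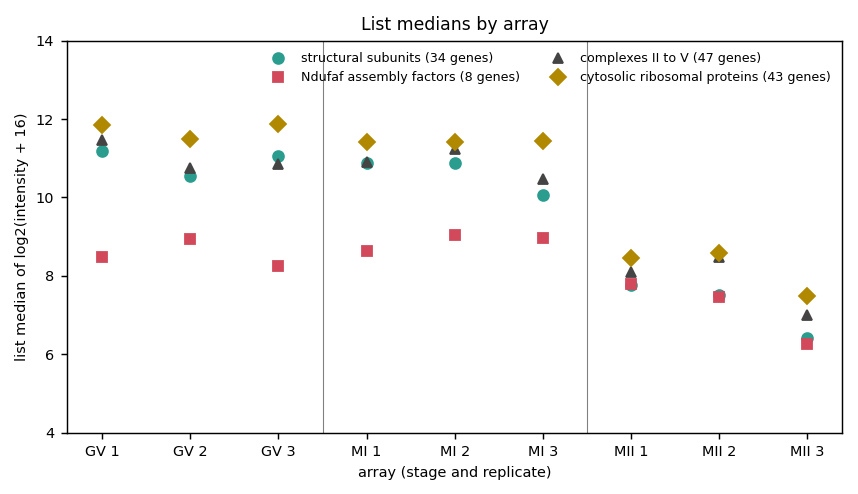
Median of log2(intensity + 16) over each list (vertical axis) on each of the 9 arrays (horizontal axis). The structural subunits lie between 10.05 and 11.17 on GV and MI arrays and between 6.41 and 7.76 on MII arrays, and the lists of the other complexes and of ribosomal proteins are lower on MII arrays as well.

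The 2 genes that carry the name without being subunits of complex I differed in their values. Ndufa4 had 1539, 1100.3 and 805 on the MII arrays against 4164, 4004 and 5438 on the MI arrays and fell 4.01-fold (SE 0.30 on the log2 scale, adjusted p = 0.00673). Ndufa4l2, known as a hypoxia-induced gene, had 129, 122 and 164 on the MII arrays against 62.3, 68.0 and 179 on the MI arrays. These overlapped, with a log2 change of 0.49 (95% interval -0.54 to 1.53, adjusted p = 0.633).

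Probe sets that did not stand for their gene gave a check on single probe designs. Of 44 such probe sets with 1 symbol, belonging to 22 of the genes, 37 had the sign of their gene in MII relative to MI. Among the 35 with a mean intensity of at least 100 at some stage it was 33, the exceptions being the dim probe sets of Ndufa12 and Ndufs4 given above. Among the 9 below that level it was 4.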

How the data were processed

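The authors deposited a table of linear intensity values, 1 per probe set and array. Per the labels' protocols, the RNA was extracted with a micro kit, reverse-transcribed, amplified linearly and labelled with biotin. How probes were summarised, corrected for background and scaled is not given in the sources used here. There were 0 other columns of per-sample values, and precision is limited by the number of arrays.

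Of 45101 probe sets, 64 controls were left out, and 34945 had 1 symbol in the platform annotation (932 several, 9160 none). The probe set with the highest mean log2(intensity + 16) over the 9 arrays stood for a gene; some, with suffixes _s or _x, can bind related transcripts. Identifiers of 18032 of 18193 genes were found in a RefSeq table (GRCm38.p6), with 0 symbols changed. No filter on low signal was used. With limma 3.58.1 (R 4.3.3), lmFit and eBayes fitted one model with 3 stage means over 9 arrays, two-sided, with Benjamini-Hochberg adjustment over 18193 genes. Fold changes on this scale understate changes of dim genes. It was tested on simulated data.

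All 44 members were counted by class; values were given for all Ndufaf genes and core subunits, up to 4 largest falls per class, probe sets that disagreed, other assembly factors that passed, and the 3 smallest p in MI minus GV. Ndufa2, Ndufa9, Ndufa13, Ndufb2, Ndufb3, Ndufb6, Ndufb10, Ndufb11, Ndufa1, Ndufs5, Ndufc1, Ndufb4, Ndufa4 and Ndufa4l2 were added after their values were seen. Members, lists, motifs and alternatives were chosen with earlier results of these data known.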

Additional observations from a re-analysis of the deposited data

How the results depend on the processing

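The fall of the structural subunits kept its direction in every alternative tried. With 2 pseudocounts, quantile normalization, arrays scaled to the same 95th percentile or centred on their median, the lowest 40% of genes left out, the mean of all probe sets, an intensity trend in the prior, the replicate block, or only the 2 stages compared, 21 to 29 subunits fell in MII relative to MI and 25 to 30 relative to GV, and 2 to 4 assembly factors fell. Over all genes, 1233 fell and 462 rose in MII relative to MI, against 1132 and 827 with quantile normalization and 1110 and 782 at the same 95th percentile, 931 and 185 with pseudocount 1, 725 and 300 without MI 1, 640 and 206 without MI 2, 1197 and 304 without MI 3, 999 and 235 without MII 1, 943 and 260 without MII 2, and 744 and 187 without MII 3. Leaving out 1 array gave 18 (without MI 2) to 26 subunits and 2 to 4 assembly factors that fell in MII relative to MI, and 26 to 29 and 2 to 4 relative to GV. The medians of the subunits then ran from -3.56 to -3.03 (MII minus MI), from -4.03 to -2.92 (MII minus GV) and from -0.45 to -0.05 (MI minus GV), and those of the assembly factors from -1.61 to -0.999, from -1.45 to -0.90 and from -0.17 to 0.15. Of the 27 subunits called in MII relative to MI, 18 were called in all 9 such fits and 27 were below 0 in every one of the alternatives run. Of 1271 values of single named genes, 1201 kept their direction and side of the threshold, 56 lost and 11 gained a call, and 3 changed sign, none of them called: Ndufaf3 without MII 3 (range when 1 array was left out -0.62 to 0.16 relative to MI and -0.73 to 0.053 relative to GV) and Ndufaf6 without GV 2 (-1.63 to 0.10 relative to GV).

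Deviations of same-numbered arrays from their stage means correlated between 0.00076 and 0.226 over 9 pairs. Those of differently numbered arrays correlated between -0.25 and 0.109 over 18 pairs. The numbers were not taken to pair the samples, because the labels do not say that they do. Of the 9 same-number correlations, 4 were over 0.1. As a hint towards pairing from the data, 15 of 18 arrays and stages correlated best with their own number. With the replicate block, 29 subunits fell in MII relative to MI and 30 relative to GV, with 4 and 3 assembly factors, and 26 of the 27 subunits called without it were among them. In MII relative to MI, Ndufs3 (adjusted p = 0.0293) and Ndufaf8 (adjusted p = 0.0283) passed with the block, Ndufs3 under no other alternative run. Signal over background limits the falls of Ndufs8 and Ndufaf5 and the lowest MII values of Ndufv1, Ndufv2, Ndufa12 and Ndufc1, Ndufaf6 was near background on all MII arrays, and Ndufaf1 and Ndufb4 were near background on all arrays.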

Other observations

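Probe sets that carry several symbols were kept out of the gene counts but measured subunits that had no probe set alone. Their adjusted p-values come from the same model over all probe sets except controls. A probe set shared by Ndufb4 and its copies Ndufb4b and Ndufb4c had 176, 176 and 144 on the MII arrays against 2327, 2708 and 2005 on the MI arrays (log2 change -3.70, SE 0.19, adjusted p = 0.000592), and a second one moved by -3.80. The single-symbol Ndufb4 probe set was at background throughout, so its change cannot be set against theirs. A probe set shared by Ndufa11 and Ndufa11b had 64.1, 206 and 47.0 on the MII arrays against 4692, 2900.0 and 2530.4 on the MI arrays (log2 change -4.98, SE 0.52, adjusted p = 0.00297). One shared by Ndufs6 and Ndufs6b had 181, 32.4 and 24.4 on the MII arrays against 1181, 814 and 1064 on the MI arrays (log2 change -3.81, SE 0.68, adjusted p = 0.0193). Its GV values, 2758, 1113 and 4179, were scattered.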
